A study of Mus musculus with 6 samples.

Results

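Cultures of adipocytes grown from brown fat were compared with cultures grown from epididymal fat, the white depot beside the testis, by RNA sequencing. The comparison used 4 of the 6 libraries of the series: BAT replicates 1 and 2 against eWAT replicates 1 and 2, taken by the sample names of the deposited count table, and it ran across all genes rather than a chosen set. All 4 cultures came from male NMRI mice, an outbred strain, aged 4 to 5 weeks. For BAT, the pads between the shoulder blades (interscapular), at the neck (cervical) and in the armpit (axillary) were pooled. Collagenase freed the stromal-vascular cells of each depot, which hold the adipocyte precursors, and both depots then received the same medium, which held newborn calf serum (10%), insulin (30 nM) and rosiglitazone (1 µM), an agonist of the adipogenic receptor Pparg. RNA was taken 8 days after plating, although the names of the samples in the table carry a D7 tag, and a culture was used if more than 50% of its cells had differentiated. No allele, transgene or thermogenic stimulus is named for either group. The remaining 2 libraries, from inguinal fat (iWAT), entered the fit only for its estimates of spread and of the replicate term. The labels do not say that the replicates of a depot were separate animals or cultures, so the p-values below measure the spread between libraries, which may be technical.

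Brown adipocytes burn fatty acids and glucose for heat. Their mitochondria carry Ucp1, which lets protons back across the inner membrane without making ATP, and they hold many small lipid droplets. White adipocytes store triglyceride and secrete hormones, and visceral depots such as epididymal fat are known to draw in macrophages as they grow. Every culture is a mixture of adipocytes with cells that did not differentiate, so in bulk RNA fewer cells of a type and less RNA per cell cannot be told apart.

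Each value below is CPM, the read count scaled to a common library size with TMM factors, given for replicate 1 and then replicate 2. Differences are log2 of BAT over eWAT from one edgeR quasi-likelihood fit of all genes with the replicate number as a block, and the threshold for a call was an adjusted p of 0.05. Total counts ran from 2889038 to 4807449 in the BAT libraries and from 3363453 to 4094340 in the eWAT libraries. Replicate 1 was the deeper library in each depot, so that depth and replicate number cannot be told apart. The upper limit for a gene with no count, 3 counts, was 0.634 to 1.15 CPM in these libraries and covers counting error only. Of 11732 genes tested, 1276 (10.9%) were higher and 1504 (12.8%) lower in BAT, 23.7% in all, and the median of all tested genes was -0.03. The libraries of the depots did not overlap for 6481 genes (55.2%), and 4404 genes had an unadjusted p under 0.05. The lower side held the larger differences: 262 genes were called with a log2 below -3 and 45 with a log2 above 3. The sign was shared by both replicate numbers for 2777 of the 2780 called genes, and the libraries of the depots overlapped for 143 of them. A call in a fit with the replicate block favours a shared sign and separate libraries. Neither is therefore separate support for a called gene, here or below.

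The block mattered for the number of calls. Without it, 318 genes were called higher and 440 lower. Leaving out eWAT replicate 1 left 416 and 752, leaving out eWAT replicate 2 left 429 and 807, and leaving out BAT replicate 1 raised the calls to 1572 and 1642. Scaling by total counts alone gave 893 higher and 1789 lower calls, so the higher share of all calls moved from 45.9% to 33.3%, and the median of all genes moved to -0.18. Below, the number of members called without the block is given with the lists. Of the called genes named below, these were not called without it: Abcd2, Akap1, Aldh1a2, Atp5g3, Atp6v0e, Atp6v1d, Bcat2, Bckdhb, Bmp3, Cd59a, Ckb, Elovl3, Emr1, Esrra, Fos, Gatm, Gnas, Gys1, Hif1a, Hoxa5, Hoxd8, Il1rl2, Il6, Itgad, Mki67, Mrpl47, Nampt, Plin4, Pm20d1, Pparg, Ppargc1a, Rspo2, Sfrp2, Slc11a2, Slc25a10, Slc2a4, Slit3, Sod2, Trim30a, Tslp and Uqcrc1. Leaving out an eWAT library also ended the calls of Rxra (replicate 1), and of Elovl6 and Gpam (replicate 2). The genes and list counts given without the block are those of the fit of all 6 libraries. With the BAT and eWAT libraries alone and no block, 303 of 381 called genes followed by name lost the call. Ebf2, Gpd2, Dhrs9 and Esrrg were among those lost.

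**Figure D1:**
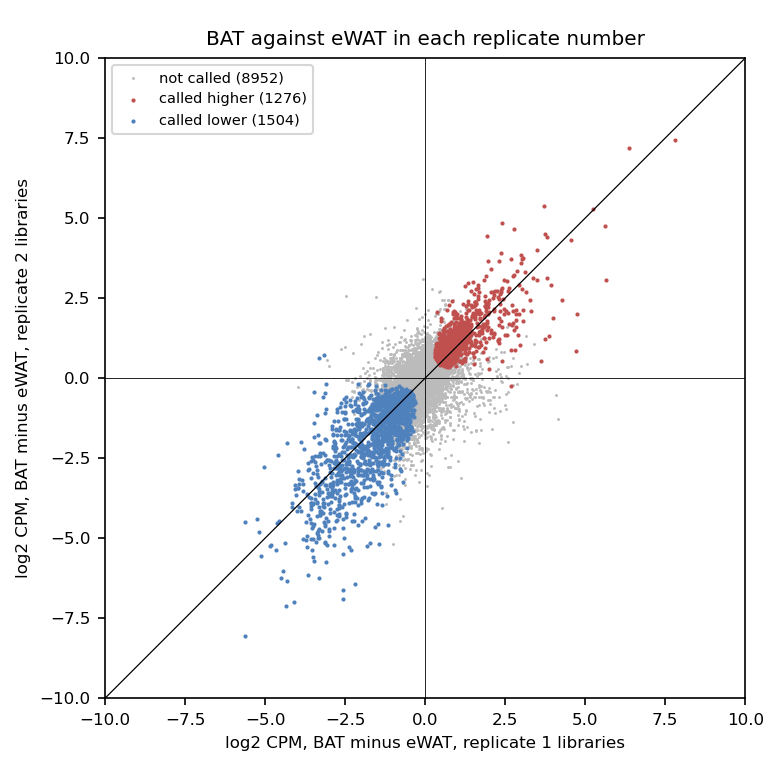
Each point is a tested gene; the x axis is the log2 CPM difference of BAT minus eWAT between the replicate 1 libraries and the y axis the same between the replicate 2 libraries, with the line of equality drawn. The 1276 genes called higher and 1504 called lower share a sign between the replicates in 2777 of 2780 cases, and 1780 of them differ by less than 0.5 log2 between the replicates. The call itself favours genes alike in both replicates, so this is not separate support.

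The labels were first set against marker genes. Ucp1 (chr8:85814247-85822355 in mm9) read 4924 and 9294 CPM in BAT and 59.6 and 62.9 CPM in eWAT, a log2 difference of 6.82 (SE 0.35, adjusted p = 0.000209). For Cidea, a droplet protein abundant in brown fat, the values were 582 and 929.9 CPM in BAT and 2.10 and 4.84 CPM in eWAT, a log2 difference of 7.85 (SE 0.80, adjusted p = 0.00124). All BAT libraries lay far above all eWAT libraries for both genes. Zic1, a transcription factor of dorsal brown fat, read 6.76 and 10.3 CPM in BAT and had no count in eWAT, at least 20.9-fold higher against 3 counts over the eWAT libraries. On the white side, the secreted protein resistin (Retn, chr8:3655770-3659818 in mm9) read 11.4 and 18.7 CPM in BAT and 213 and 286 CPM in eWAT, a log2 difference of -4.08 (SE 0.19, adjusted p = 0.000179). Wt1, a factor of visceral stroma and mesothelium, read 1.69 and 0.382 CPM in BAT and 28.4 and 29.6 CPM in eWAT, a log2 difference of -4.67 (SE 0.50, adjusted p = 0.00151). The 5 markers followed the labels in every library, although Ucp1 was also counted in both eWAT libraries.

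**Figure D2:**
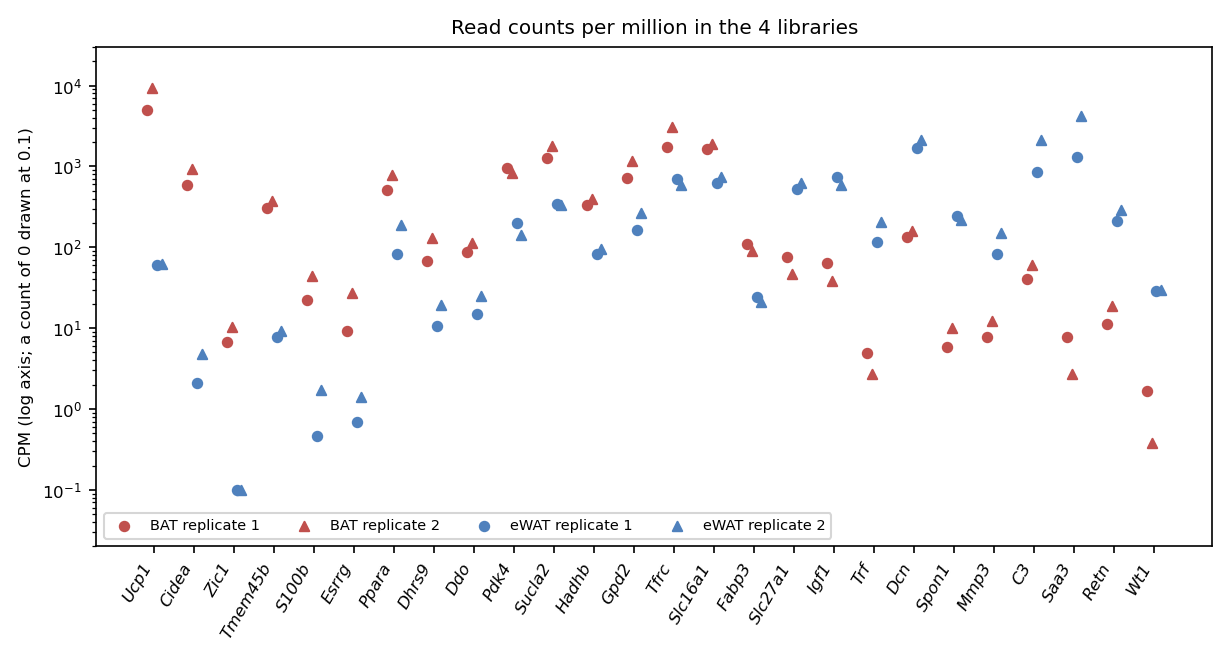
CPM on a log axis for 26 genes in the 4 libraries; red marks BAT, blue marks eWAT, circles replicate 1 and triangles replicate 2, and a count of 0 is drawn at 0.1. The depots separate for every gene shown, from Ucp1 at 4924 and 9294 CPM in BAT to Wt1 at 28.4 and 29.6 CPM in eWAT.

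Markers of other cells differed between the depots. The macrophage list (21 genes) summed to 520.1 and 107 CPM in BAT and 5733 and 2542 CPM in eWAT, and all 21 were called lower in BAT (7 without the block). Its defining members gave 23.5 and 6.12 CPM in BAT and 283 and 99.8 CPM in eWAT for Emr1 and 8.03 and 1.91 CPM in BAT and 109 and 73.7 CPM in eWAT for Cd68. The list was also higher in replicate 1 than in replicate 2 of each depot. Preadipocyte and fibroblast markers summed to 7738 and 4535 CPM in BAT and 22393 and 21777 CPM in eWAT, and 13 of 20 tested were lower and 1 higher (8 and 1 without the block). Pdgfra, their defining receptor, read 301 and 226 CPM in BAT and 956 and 953 CPM in eWAT. Mesothelial markers summed to 78.8 and 80.3 CPM in BAT and 317 and 366 CPM in eWAT, yet the defining members were sparse, with Msln at 0 and 0.382 CPM in BAT and 0.699 and 0.853 CPM in eWAT and Upk3b at 0 and 0.382 CPM in BAT and 1.16 and 6.54 CPM in eWAT. Adipocyte markers summed to 39374 and 54601 CPM in BAT and 30533 and 37445 CPM in eWAT. Of 12 tested, however, 1 was called higher and 2 lower (0 and 1 without the block). Their median log2 was -0.19, with 9 of the 12 values below 0. The hormone gene Adipoq read 1463 and 2171 CPM in BAT and 1401 and 2396 CPM in eWAT, with overlapping libraries.

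No member of the endothelial or smooth muscle lists was called in the fit reported, although members of both were called in an alternative setting. Of 13 endothelial genes tested, 11 had values above 0. Their median of 0.77 ran from -0.21 to 1.53 across the alternatives. The smooth muscle and pericyte median of -0.14 ran from -0.90 to 0.19. An absence of calls therefore does not show equal amounts of these cells. The endothelial list summed to 286 and 143 CPM in BAT and 91.6 and 186 CPM in eWAT, and the smooth muscle and pericyte list to 2027 and 353 CPM and 1339.7 and 656 CPM. The skeletal muscle list summed to 62.3 and 45.1 CPM in BAT and 54.5 and 27.3 CPM in eWAT. Of 6 tested members, 1 was higher and 1 lower (0 and 1 without the block). Of its 31 genes, only 1, Myod1, had no count in BAT, while 8 had none in eWAT. The dendritic cell, lymphocyte and granulocyte list summed to 19.02 and 18.4 CPM in BAT and 45.9 and 43.5 CPM in eWAT, with 2 of 5 tested members lower and none higher, and Cd3e of T cells at 0 in all 4 libraries. The red cell gene Hba-a1 was at 0 in all 4, and the list of the epididymis and male tract summed to at most 2.75 CPM in any library.

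**Figure D3:**
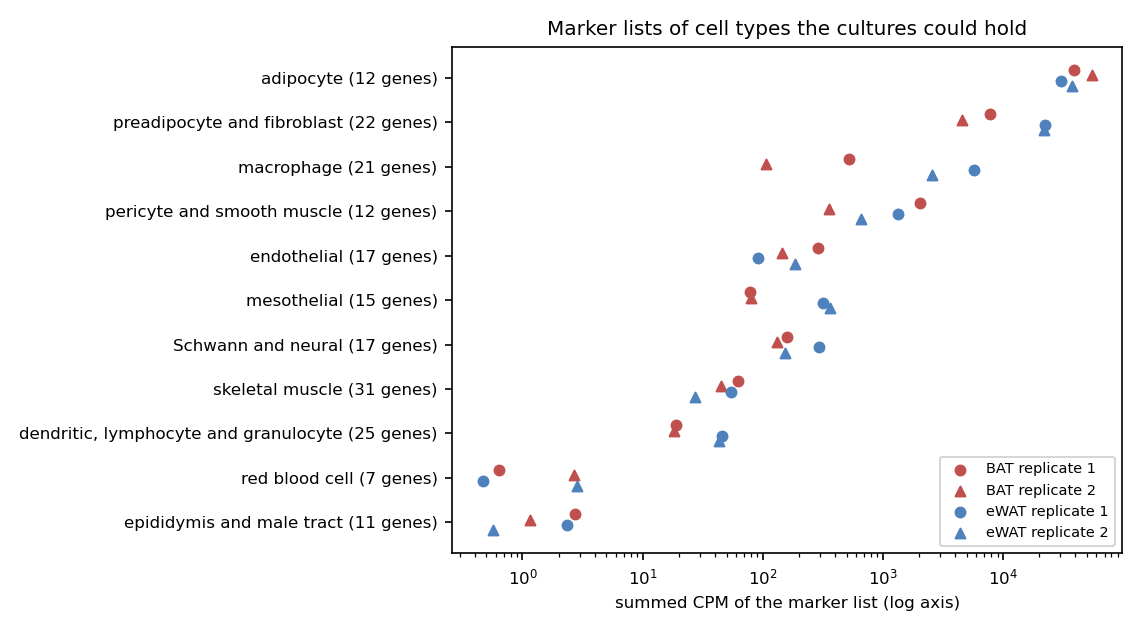
Summed CPM of each marker list on a log axis, 1 point per library (red BAT, blue eWAT, circles replicate 1, triangles replicate 2). The macrophage sums lie at 520.1 and 106.7 CPM in BAT and at 5733 and 2542 CPM in eWAT, while adipocyte sums lie between 30533 and 54601 CPM in all 4.

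Regulators of the brown lineage, a list that includes the marker Zic1, had more higher than lower calls. Of 30 tested, 14 were called higher and 2 lower (7 and 1 without the block), with a median log2 of 0.60. Ebf2, which opens brown-selective chromatin, read 212 and 314 CPM in BAT and 63.8 and 84.8 CPM in eWAT, a log2 difference of 1.81 (SE 0.15, adjusted p = 0.000652). Ppara, a fatty acid receptor that drives oxidation genes, read 507 and 784 CPM in BAT and 83.4 and 189 CPM in eWAT, a log2 difference of 2.31 (SE 0.20, adjusted p = 0.000688). The mitochondrial gene Letmd1 read 466 and 967 CPM in BAT and 129 and 165 CPM in eWAT, a log2 difference of 2.22 (SE 0.21, adjusted p = 0.000941). In the other direction, Cebpd, an early adipogenic factor, read 16.9 and 9.18 CPM in BAT and 40.3 and 50.9 CPM in eWAT, a log2 of -1.76 (SE 0.28). The 4 libraries of Ebf2, Ppara and Letmd1 did not overlap between depots.

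Orphan nuclear receptors that switch on mitochondrial genes rose as well. Esrrg read 9.09 and 27.1 CPM in BAT and 0.699 and 1.42 CPM in eWAT, a log2 difference of 4.01 (SE 0.41, adjusted p = 0.00127). Esrra read 120.5 and 216 CPM in BAT and 72.0 and 97.3 CPM in eWAT, and the coactivator Ppargc1a 59.0 and 178 CPM in BAT and 26.3 and 53.5 CPM in eWAT, with log2 values of 0.95 (SE 0.17) and 1.47 (SE 0.18). Both BAT libraries exceeded both eWAT libraries for these 3 genes. Gabpa, an ETS factor of respiratory gene promoters, read 344 and 511 CPM in BAT and 144 and 169 CPM in eWAT, a log2 difference of 1.43 (SE 0.15, adjusted p = 0.00141). Pparg itself was higher at 395 and 531 CPM in BAT and 168 and 264 CPM in eWAT. Nrip1, a corepressor of oxidation genes, was lower at 46.7 and 50.9 CPM in BAT and 103 and 156 CPM in eWAT, as was Rxra at 47.8 and 51.6 CPM in BAT and 93.4 and 94.1 CPM in eWAT. Over all nuclear receptors and coregulators, 6 of 37 were higher and 7 lower (2 and 3 without the block), close to the shares of all genes.

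Respiratory chain genes had the largest share of calls among the function lists. Of 74 tested nuclear-encoded subunits of oxidative phosphorylation, 68 were called higher and 1 lower (33 and 0 without the block), with a median log2 of 0.98 and no value above 1.57. The list summed to 35137 and 50220 CPM in BAT and 18989.6 and 21759 CPM in eWAT. Uqcrb of complex III read 203 and 251 CPM in BAT and 79.9 and 72.5 CPM in eWAT, a log2 difference of 1.57 (SE 0.16, adjusted p = 0.0012). Cytochrome c (Cycs) read 88.5 and 106 CPM in BAT and 35.9 and 37.5 CPM in eWAT, a log2 difference of 1.40 (SE 0.15, adjusted p = 0.00131). Ndufa5 of complex I read 171 and 244 CPM in BAT and 69.4 and 77.6 CPM in eWAT and Cox5a of complex IV 352 and 442 CPM in BAT and 154 and 175 CPM in eWAT, with log2 values of 1.48 (SE 0.16) and 1.27 (SE 0.14). The single lower call was Atp5g3, which encodes the same ATP synthase subunit as its sister genes, at 195 and 218 CPM in BAT and 302 and 351 CPM in eWAT, a log2 difference of -0.66 (SE 0.14, adjusted p = 0.0138). Cox7a1, the muscle and brown fat form of a complex IV subunit and not part of that list, read 269 and 451 CPM in BAT and 45.4 and 55.2 CPM in eWAT, a log2 difference of 2.81 (SE 0.22, adjusted p = 0.000608).

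The promoters of these genes were read from the RefSeq promoter table (GRCm38.p6, 250 bases before to 50 after each start; 16183 of the 20295 genes matched). The binding motif of Nrf1, GCGCATGCG on either strand, was present in 7 of the 61 promoters of subunits called higher (11.5%). Of the promoters of all tested genes, 3.66% held it. Over the whole list it was in 8 of 67 (11.9%), so the called members did not hold it more often than the list. Across all genes it was in 3.96% of promoters of those called higher and 1.2% of those called lower. Promoters of genes tested and not called held it in 4.02%. The ETS motif CCGGAAGTG, the kind Gabpa binds, was in 2 of the same 67 (2.99%) and in 4.28% of all. The 2 below belong to the called subunits with a match and the smallest adjusted p, and capitals mark the motif.
Cycs (chr6:50566520-50566819, minus strand): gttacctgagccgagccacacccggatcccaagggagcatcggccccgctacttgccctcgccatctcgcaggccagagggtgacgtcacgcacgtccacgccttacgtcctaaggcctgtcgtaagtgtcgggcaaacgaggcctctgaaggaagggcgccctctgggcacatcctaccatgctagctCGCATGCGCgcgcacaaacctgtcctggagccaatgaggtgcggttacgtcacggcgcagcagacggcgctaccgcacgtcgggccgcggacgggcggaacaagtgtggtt
Uqcrc1 (chr9:108936398-108936697, plus strand): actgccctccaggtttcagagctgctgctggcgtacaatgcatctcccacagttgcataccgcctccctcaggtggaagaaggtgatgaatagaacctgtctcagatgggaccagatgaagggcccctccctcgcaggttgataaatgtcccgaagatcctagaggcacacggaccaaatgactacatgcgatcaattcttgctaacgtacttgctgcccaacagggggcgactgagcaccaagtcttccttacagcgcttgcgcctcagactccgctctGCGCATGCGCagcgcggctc
In Uqcrc1 the match on one strand overlaps a match on the other. Uqcrc1, a core protein of complex III, read 769 and 1309 CPM in BAT and 371 and 519.9 CPM in eWAT, a log2 of 1.20 (SE 0.17). A match describes the letters only and is no evidence of binding here.

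Genes of substrate oxidation also had more higher than lower calls. In the citrate cycle and pyruvate entry list, 21 of 26 were higher and none lower (10 without the block), with a median of 1.12. Pdk4, the kinase that shuts pyruvate dehydrogenase when fat is burned, read 957 and 831 CPM in BAT and 198 and 143 CPM in eWAT, a log2 difference of 2.41 (SE 0.20, adjusted p = 0.000676). Sucla2, a subunit of succinate-CoA ligase, read 1259 and 1783 CPM in BAT and 345 and 336 CPM in eWAT, a log2 difference of 2.15 (SE 0.21, adjusted p = 0.00104). The libraries of the depots were separate for both genes. In fatty acid oxidation, 21 of 42 were higher and 2 lower (11 and 1 without the block), with a median of 0.69.

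Both subunit genes of the trifunctional protein that shortens long-chain fatty acids were higher. Hadhb read 329.7 and 400 CPM in BAT and 82.0 and 95.3 CPM in eWAT, a log2 difference of 2.04 (SE 0.20, adjusted p = 0.00109), and Hadha 2585 and 4193 CPM in BAT and 906 and 1036 CPM in eWAT. Cpt1b, the muscle-type gate for fatty acid entry, read 56.8 and 82.2 CPM in BAT and 24.2 and 30.7 CPM in eWAT, and the carnitine carrier Slc25a20 461 and 817 CPM in BAT and 165 and 213 CPM in eWAT, with log2 values of 1.32 (SE 0.16) and 1.72 (SE 0.18). The 2 lower genes both act in peroxisomes. They were Acot3, a thioesterase with near-identical neighbours, at 0.211 and 0.765 CPM in BAT and 8.62 and 8.82 CPM in eWAT, and the very-long-chain transporter Abcd2 at 210.5 and 163 CPM in BAT and 494 and 354 CPM in eWAT.

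Branched-chain amino acid and ketone genes rose in 16 of 24 tested members and fell in 2 (3 and 0 without the block), with a median of 0.64. Hibch, of valine breakdown, read 257 and 364 CPM in BAT and 115 and 134 CPM in eWAT, a log2 difference of 1.30 (SE 0.15, adjusted p = 0.00174). Bckdhb, a subunit of the rate-limiting dehydrogenase, read 292 and 445 CPM in BAT and 126 and 184 CPM in eWAT. The first transaminase, Bcat2, went the other way at 61.1 and 142 CPM in BAT and 99.2 and 211 CPM in eWAT, a log2 of -0.63 (SE 0.14), although its libraries overlapped and replicate 1 was the lower library in each depot.

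Many genes of the machinery that builds mitochondria were also higher. The mitochondrial ribosome list had 54 of 82 members higher and none lower, with a median of 0.73, but only 9 were called without the block. Mrpl47 read 67.2 and 99.0 CPM in BAT and 26.1 and 37.5 CPM in eWAT and Mrpl42 116 and 139 CPM in BAT and 50.1 and 49.2 CPM in eWAT. Import, chaperone and protease genes gave 27 of 37 higher and none lower (5 without the block), with Chchd3, of the cristae junctions, at 567 and 803 CPM in BAT and 244 and 299.8 CPM in eWAT. By contrast, none of the 57 cytosolic ribosomal protein genes tested, of 76 listed, was called, and their median was -0.24. Members were called lower in an alternative setting. The list summed to 3947 and 3433 CPM in BAT and 4102 and 4636 CPM in eWAT. How multi-mapping reads were treated is not given, and its part in these counts was not tested.

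Cofactor synthesis followed, with 19 of 32 genes of coenzyme Q, haem and iron-sulphur clusters higher and none lower (5 without the block). The largest difference was in Adck3, a regulator of coenzyme Q synthesis, at 109 and 339.9 CPM in BAT and 15.6 and 36.4 CPM in eWAT, a log2 difference of 3.03 (SE 0.30, adjusted p = 0.00118). Isca2, an iron-sulphur assembly factor, read 119.6 and 146 CPM in BAT and 56.6 and 49.8 CPM in eWAT. Among mitochondrial carriers the list divided, with 13 of 33 higher and 5 lower (3 and 0 without the block). The dicarboxylate carrier Slc25a10 fell (119 and 189 CPM in BAT and 313 and 419.5 CPM in eWAT, a log2 difference of -1.27 (SE 0.14, adjusted p = 0.00163)).

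Iron genes were called in both directions. Tfrc, the receptor that takes up transferrin, read 1735 and 3084 CPM in BAT and 694 and 583 CPM in eWAT, a log2 difference of 1.89 (SE 0.28, adjusted p = 0.00439). The iron transporter Slc11a2 was higher at 51.4 and 96.4 CPM in BAT and 35.4 and 37.0 CPM in eWAT. Trf, transferrin itself, read 4.86 and 2.68 CPM in BAT and 116 and 206 CPM in eWAT, a log2 difference of -5.20 (SE 0.31, adjusted p = 0.000306). The ferritin light chain Ftl1 read 281 and 242 CPM in BAT and 631 and 578 CPM in eWAT and the ferroxidase Cp 181 and 145 CPM in BAT and 403 and 581 CPM in eWAT, with log2 values of -1.21 (SE 0.16) and -1.58 (SE 0.22). In all, 3 of 15 genes were higher and 8 lower (1 and 5 without the block). The summed macrophage markers moved with the lower genes, and their part in the result was not tested.

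**Figure D4:**
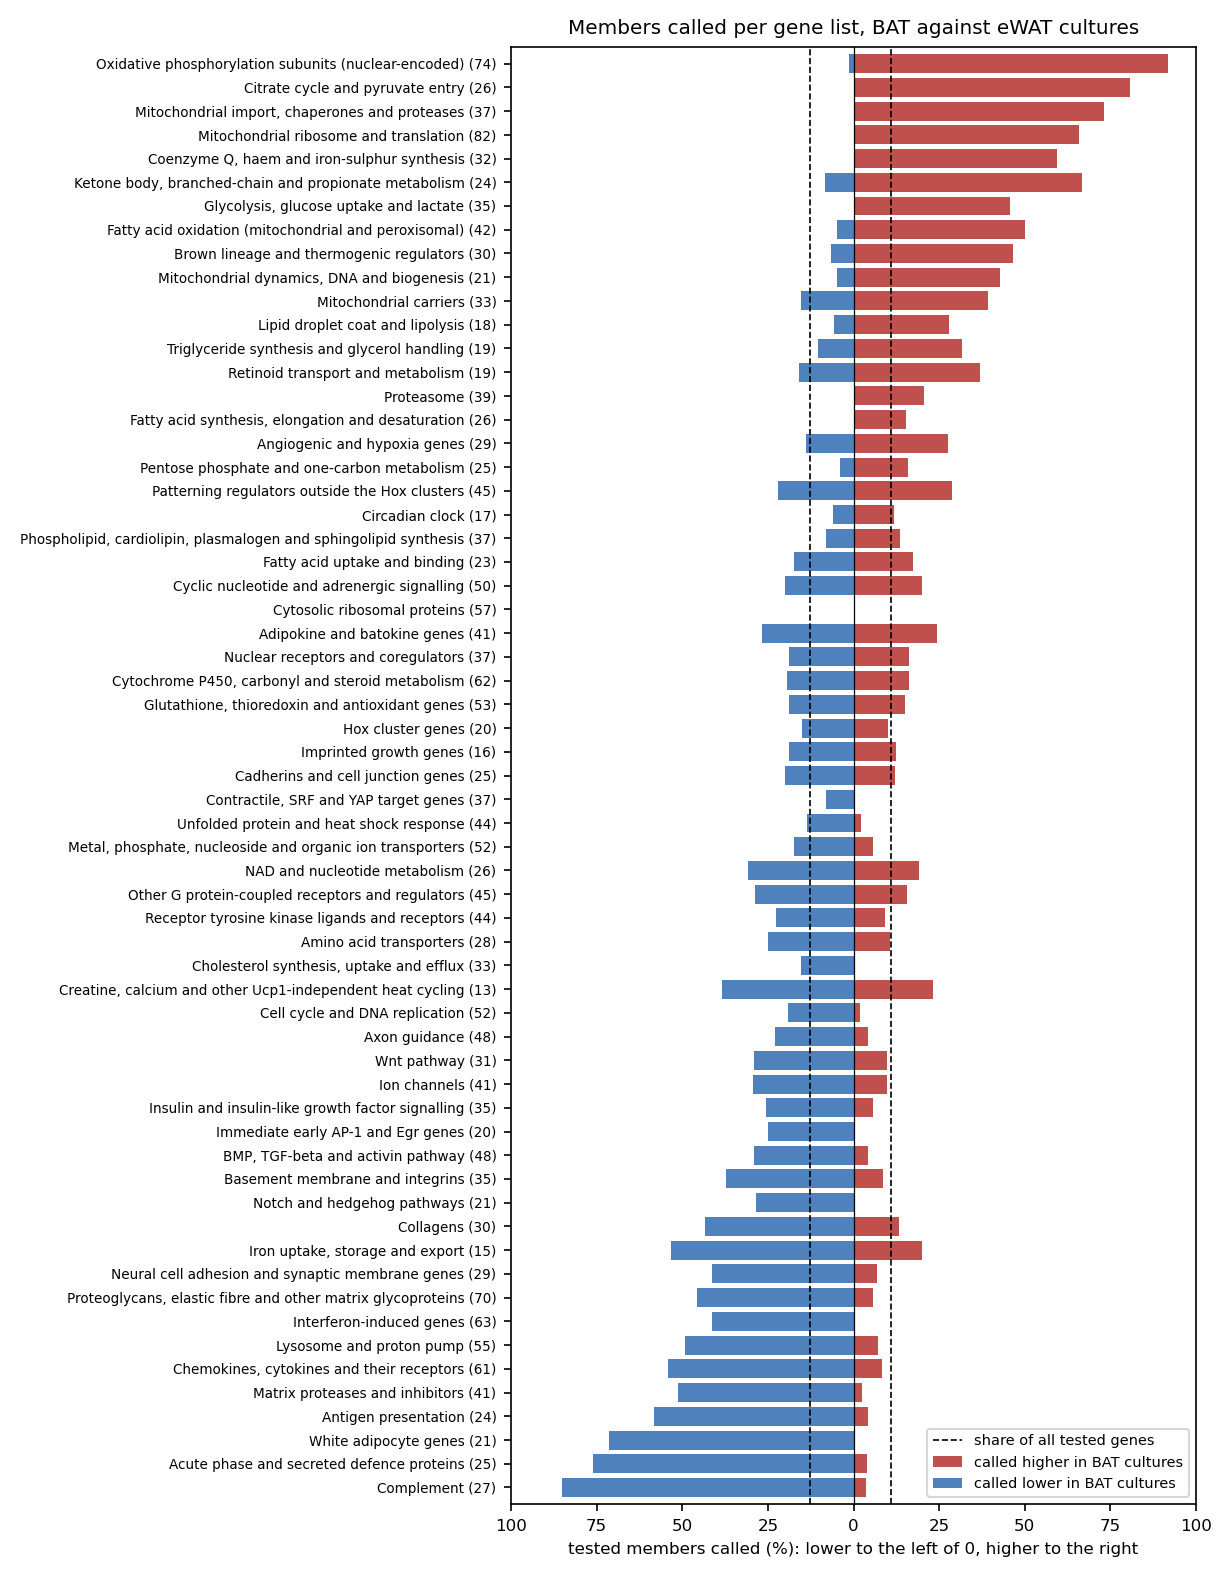
Bars give the percent of tested members of each gene list called higher (red, right) or lower (blue, left) in BAT, with the number tested in parentheses; dashed lines mark the shares of all tested genes, 10.9% and 12.8%. Mitochondrial lists stand at the top, led by oxidative phosphorylation at 91.9% higher, and complement at the bottom at 85.2% lower.

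Genes of glucose handling had more higher than lower calls too. In glycolysis, glucose uptake and lactate, 16 of 35 were higher and none lower (6 without the block), with a median of 0.69. The insulin-responsive transporter Slc2a4 read 239 and 545 CPM in BAT and 108 and 223 CPM in eWAT. Pfkp, a phosphofructokinase, read 333 and 447 CPM in BAT and 133 and 125 CPM in eWAT, a log2 difference of 1.59 (SE 0.19, adjusted p = 0.00196). The lactate and ketone carrier Slc16a1 read 1632 and 1869.8 CPM in BAT and 632 and 746 CPM in eWAT, a log2 difference of 1.35 (SE 0.16, adjusted p = 0.00221), and its membrane partner Bsg 2644 and 5002 CPM in BAT and 663 and 914 CPM in eWAT. The depots did not overlap for any of these. Bsg, Slc2a4 and the glycogen genes other than Gbe1 were chosen after their values were seen. Ppp1r3c, which brings a phosphatase to glycogen, read 75.2 and 229.8 CPM in BAT and 8.62 and 16.5 CPM in eWAT, a log2 difference of 3.50 (SE 0.34, adjusted p = 0.00103), and Ppp1r3b 247 and 346 CPM in BAT and 55.9 and 60.3 CPM in eWAT. The branching enzyme Gbe1 read 601 and 1164 CPM in BAT and 219.9 and 250.3 CPM in eWAT and the synthase Gys1 138 and 279.9 CPM in BAT and 86.2 and 133 CPM in eWAT, whereas Gys2 read 39.9 and 49.7 CPM in BAT and 56.4 and 27.0 CPM in eWAT and was not called.

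Glycerol and triglyceride genes moved in both directions. Gpd2, the mitochondrial arm of the glycerol phosphate shuttle, read 715 and 1182 CPM in BAT and 162 and 266 CPM in eWAT, a log2 difference of 2.15 (SE 0.19, adjusted p = 0.000699). Pck1 of glyceroneogenesis read 319 and 381 CPM in BAT and 101 and 64.6 CPM in eWAT, and glycerol kinase (Gyk) 881 and 982 CPM in BAT and 432 and 328 CPM in eWAT. The acyltransferase of the first step, Gpam, was lower at 717 and 708 CPM in BAT and 1435 and 1716 CPM in eWAT, a log2 difference of -1.14 (SE 0.16, adjusted p = 0.00388). Of the list, 6 of 19 were higher and 2 lower (4 and 1 without the block). On droplets, Plin5, which ties droplets to mitochondria, read 231 and 289 CPM in BAT and 108 and 112 CPM in eWAT, a log2 of 1.24 (SE 0.14), and Plin4 436 and 486 CPM in BAT and 722 and 947 CPM in eWAT, a log2 of -0.85 (SE 0.17). The lipases Pnpla2 (211 and 445 CPM in BAT and 421 and 292 CPM in eWAT) and Lipe (765 and 1094 CPM in BAT and 779 and 1201 CPM in eWAT) were not called, and their libraries overlapped. Without BAT replicate 1, Pnpla2 was called higher, with its log2 moving from -0.12 to 0.62, and without BAT replicate 2 it was called lower at -1. Lipa, the acid lipase of lysosomes, rose to 940 and 1165 CPM in BAT from 336 and 288 CPM in eWAT.

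Fatty acid uptake genes were divided between the depots. Fabp3, the heart-type binding protein, read 109 and 91.0 CPM in BAT and 24.2 and 20.8 CPM in eWAT, a log2 difference of 2.15 (SE 0.16, adjusted p = 0.000474). Vldlr, a lipoprotein receptor, read 374 and 605 CPM in BAT and 121 and 199 CPM in eWAT. The transporter Slc27a1 was lower at 75.2 and 46.6 CPM in BAT and 528 and 632 CPM in eWAT, a log2 difference of -3.26 (SE 0.24, adjusted p = 0.000474), as was the endothelial lipase gene Lipg at 30.6 and 36.3 CPM in BAT and 91.8 and 100.1 CPM in eWAT. In this list 4 of 23 were higher and 4 lower, 17.4% each way (2 and 2 without the block), with a median of -0.02. All tested genes gave 10.9% higher and 12.8% lower. In fatty acid synthesis and elongation, 4 of 26 (15.4%) were higher and none lower (1 without the block), with a median of 0.12. Elovl6 read 173 and 176 CPM in BAT and 98.8 and 78.8 CPM in eWAT and Elovl3, a cold-induced elongase of brown fat, 413 and 697 CPM in BAT and 202 and 291 CPM in eWAT. Crls1, the synthase of cardiolipin, a lipid of the inner mitochondrial membrane, read 275 and 362 CPM in BAT and 119 and 160.1 CPM in eWAT. In the cholesterol list none was higher and 5 of 33 (15.2%) were lower (1 without the block), with a median of -0.10. The lower share lay close to that of all tested genes. Apoe led the lower members at 152 and 310.1 CPM in BAT and 930 and 2023 CPM in eWAT, a log2 difference of -2.66 (SE 0.17, adjusted p = 0.000309). Macrophages also make Apoe, and the macrophage sums given above moved with it.

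Heat cycles that do not use Ucp1 gave no single direction. Of 13 tested members, 3 were higher and 5 lower (1 and 0 without the block). Both creatine genes called were lower, Gatm of creatine synthesis at 8.03 and 1.15 CPM in BAT and 37.7 and 17.6 CPM in eWAT and the kinase Ckb at 10.6 and 1.91 CPM in BAT and 34.0 and 17.6 CPM in eWAT. The calcium release channel Itpr2 was higher at 138 and 276 CPM in BAT and 46.8 and 52.3 CPM in eWAT, a log2 difference of 1.99 (SE 0.21, adjusted p = 0.0014). Pm20d1, which makes N-acyl amino acids, read 5.28 and 12.2 CPM in BAT and 1.63 and 1.42 CPM in eWAT. Among NAD and nucleotide genes, Nampt of NAD salvage rose (537 and 939 CPM in BAT and 263 and 355 CPM in eWAT), as did the mitochondrial adenylate kinase Ak4 (110.3 and 131 CPM in BAT and 14.9 and 29.3 CPM in eWAT). Xdh, xanthine dehydrogenase, fell (57.9 and 63.1 CPM in BAT and 242 and 286 CPM in eWAT, a log2 difference of -2.12 (SE 0.14, adjusted p = 0.000345)), and so did Nnt, the proton-driven transhydrogenase, at 26.4 and 20.3 CPM in BAT and 60.8 and 46.6 CPM in eWAT.

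Genes of cyclic nucleotide and adrenergic signalling moved in both directions, with 10 of 50 higher and 10 lower (2 and 3 without the block). Adrb3, the beta receptor of adipocytes, was lower in BAT at 84.1 and 86.4 CPM in BAT and 154 and 172 CPM in eWAT, a log2 difference of -0.93 (SE 0.14, adjusted p = 0.00389). Adra1a read 16.7 and 17.6 CPM in BAT and 5.36 and 3.98 CPM in eWAT, a log2 of 1.85 (SE 0.31). The phosphodiesterase Pde4d read 117 and 194 CPM in BAT and 22.8 and 38.7 CPM in eWAT, a log2 difference of 2.34 (SE 0.27, adjusted p = 0.00174), and the mitochondrial kinase anchor Akap1 247 and 479 CPM in BAT and 113 and 173 CPM in eWAT. Adenylyl cyclases Adcy5 (76.5 and 82.6 CPM in BAT and 152 and 161 CPM in eWAT) and Adcy7 (21.8 and 9.94 CPM in BAT and 66.6 and 46.9 CPM in eWAT) were lower. For Adrb3 and Pde4d the depots were separate in both replicates.

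Other receptors and channels included large differences at low levels. Ffar4, a receptor for long-chain fatty acids, read 49.2 and 102 CPM in BAT and 3.03 and 11.4 CPM in eWAT, a log2 difference of 3.42 (SE 0.49, adjusted p = 0.00382), and Ffar2, for short-chain acids, 12.5 and 13.4 CPM in BAT and 51.9 and 77.1 CPM in eWAT, a log2 of -2.25 (SE 0.25). The adenosine receptor Adora2b was lower at 2.11 and 0.765 CPM in BAT and 41.0 and 13.4 CPM in eWAT, a log2 difference of -4.18 (SE 0.35, adjusted p = 0.000661). Chrm3, a muscarinic receptor, had no count in BAT and 6.76 and 16.2 CPM in eWAT, at least 27.0-fold lower in BAT. The potassium channel Kcnc2 read 12.5 and 26.8 CPM in BAT and 1.40 and 0.569 CPM in eWAT, and the sodium channel gene Scn7a 46.1 and 47.8 CPM in BAT and 309 and 305 CPM in eWAT, a log2 difference of -2.71 (SE 0.16, adjusted p = 0.000243). Ion channels gave 4 higher and 12 lower of 41 (2 and 6 without the block). Otop1, a proton channel chosen after its values were seen, read 223 and 284 CPM in BAT and 62.0 and 33.3 CPM in eWAT.

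Secreted factors differed in both directions. Of the adipokine and batokine list, 10 of 41 were higher and 11 lower (4 and 7 without the block). S100b, a calcium-binding protein that brown adipocytes release, read 22.4 and 44.0 CPM in BAT and 0.466 and 1.71 CPM in eWAT, a log2 difference of 4.94 (SE 0.35, adjusted p = 0.000474). S100b is also in the Schwann and neural marker list, which summed to 160 and 132 CPM in BAT and 297 and 154 CPM in eWAT. Nrg4 read 50.5 and 43.2 CPM in BAT and 11.2 and 6.26 CPM in eWAT and the angiogenic factor Vegfa 379 and 580 CPM in BAT and 149.8 and 225 CPM in eWAT, with log2 values of 2.45 (SE 0.26) and 1.35 (SE 0.17). Igf1 read 64.2 and 38.6 CPM in BAT and 730.3 and 588 CPM in eWAT, a log2 difference of -3.71 (SE 0.18, adjusted p = 0.000179). Its binding proteins Igfbp4 (76.9 and 101 CPM in BAT and 530 and 459 CPM in eWAT) and Igfbp3 (61.5 and 129 CPM in BAT and 361 and 1135 CPM in eWAT) were lower with it. Figf, the lymphatic growth factor also called Vegfd, was lower at 24.1 ± 1.56 CPM (SD, n = 2) in BAT against 172 and 117 CPM in eWAT, a log2 of -2.58 (SE 0.20). In the white adipocyte list, none was higher and 15 of 21 were lower (12 without the block), with a median of -2.43. That list is not of adipocyte genes alone, since it holds Tcf21, a factor of visceral stroma. The adipocyte marker list had a median of -0.19. Cfd (adipsin) read 10.4 and 17.2 CPM in BAT and 78.7 and 178 CPM in eWAT and Dpt 16.7 and 12.2 CPM in BAT and 178 and 251 CPM in eWAT. The preadipocyte and macrophage marker sums given above were also lower in BAT, and their part in these differences was not tested. Leptin (Lep) was near 0 everywhere, at 0.211 and 0.765 CPM in BAT and 0.466 and 0 CPM in eWAT.

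Some of the most reproducible differences were in genes outside the thermogenic set. Tmem45b (chr9:31233781-31271823 in mm9), a membrane protein gene, had the smallest adjusted p of all, with 309 and 375 CPM in BAT and 7.69 and 9.10 CPM in eWAT, a log2 difference of 5.34 (SE 0.18, adjusted p = 6.66e-05). Dhrs9, a retinol and steroid dehydrogenase, read 66.8 and 130 CPM in BAT and 10.7 and 19.3 CPM in eWAT, a log2 difference of 2.70 (SE 0.17, adjusted p = 0.000331). Ddo, the peroxisomal D-aspartate oxidase, read 86.2 and 114 CPM in BAT and 15.1 and 25.0 CPM in eWAT, a log2 difference of 2.33 (SE 0.17, adjusted p = 0.000474). Fahd1, an acylpyruvase of mitochondria, read 78.0 and 142 CPM in BAT and 21.2 and 29.6 CPM in eWAT, and Rmdn1 101 and 186 CPM in BAT and 22.4 and 30.7 CPM in eWAT. The depots were clear of each other in both replicates for all 5. Among lower genes, the carboxypeptidase-like Cpxm1 read 11.8 and 16.8 CPM in BAT and 290.5 and 383 CPM in eWAT, a log2 difference of -4.56 (SE 0.19, adjusted p = 0.000179), and Lgi2 12.3 and 9.56 CPM in BAT and 125 and 98.7 CPM in eWAT.

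Retinoid genes moved both ways. Of 19 tested, 7 were higher and 3 lower (3 and 1 without the block). Besides Dhrs9, the binding protein Rbp7 rose (42.9 and 31.4 CPM in BAT and 4.66 and 8.82 CPM in eWAT), while the retinoic acid synthases Aldh1a1 (16.9 and 21.8 CPM in BAT and 100.2 and 97.0 CPM in eWAT, a log2 difference of -2.38 (SE 0.23, adjusted p = 0.000986)) and Aldh1a2 (27.7 and 2.68 CPM in BAT and 335 and 27.3 CPM in eWAT) fell. Aldh1a2 overlapped between depots, with replicate 1 above replicate 2 in each. Of the P450 genes, Cyp2e1 gave 51.7 and 608 CPM in eWAT against 1 count over both BAT libraries, a ratio of 2219-fold with an exact 95% interval from 398 to 87671. The interval covers counting error only and not the wide difference between the eWAT replicates. Cyp7b1, an oxysterol hydroxylase, read 14.4 and 33.3 CPM in BAT and 489.9 and 233 CPM in eWAT, a log2 of -3.99 (SE 0.49).

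Positional genes differed in both directions. Among patterning regulators outside the Hox clusters, 13 of 45 tested were higher and 10 lower (6 and 5 without the block). Tbx15 read 48.4 and 32.5 CPM in BAT and 0.466 and 3.41 CPM in eWAT, a log2 difference of 4.46 (SE 0.50, adjusted p = 0.00165). Lhx8 read 9.51 and 11.1 CPM in BAT against 1 count over the eWAT libraries, a ratio of 78.6-fold with an exact 95% interval from 13.7 to 3148, for counting error only. Tcf21, a factor of visceral stroma, read 0.845 and 0 CPM in BAT and 49.6 and 13.9 CPM in eWAT, a log2 difference of -6.04 (SE 0.49, adjusted p = 0.000632), and Gata6 8.88 and 7.26 CPM in BAT and 37.0 and 33.3 CPM in eWAT. From the Hox clusters, Hoxc8 (13.1 and 12.2 CPM in BAT and 80.4 and 56.3 CPM in eWAT, a log2 difference of -2.43 (SE 0.21, adjusted p = 0.000724)) and Hoxc9 (1.06 and 1.91 CPM in BAT and 9.32 and 8.82 CPM in eWAT) were lower, while Hoxd8 (49.5 and 50.1 CPM in BAT and 13.7 and 28.2 CPM in eWAT) and Hoxa5 (30.9 and 45.5 CPM in BAT and 20.5 and 21.6 CPM in eWAT) were higher. Mesothelial and preadipocyte marker sums moved with Tcf21 and Wt1, and their part in the result was not tested.

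Growth and patterning signals had more lower than higher calls, although most members were not called. The R-spondins, which amplify Wnt signals, differed by member: Rspo2 read 9.51 and 2.29 CPM in BAT and 0 in eWAT, at least 18.1-fold higher, and Rspo1 5.59 and 11.4 CPM in eWAT and 0 in BAT, at least 20.1-fold lower. Rspo1 is also in the mesothelial marker list, whose sums were lower in BAT, and the part of those cells was not tested. Across the Wnt list 3 of 31 were higher and 9 lower (0 and 3 without the block), with Sfrp2, a Wnt-binding antagonist, at 24.1 and 6.88 CPM in BAT and 126 and 71.4 CPM in eWAT. In the BMP, TGF-beta and activin list 2 of 48 were higher and 14 lower (0 and 2 without the block). Ltbp1, which stores latent TGF-beta in the matrix, read 2.75 and 1.91 CPM in BAT and 21.7 and 28.7 CPM in eWAT, a log2 difference of -3.31 (SE 0.34, adjusted p = 0.0012), and Bmp3 27.7 and 20.6 CPM in BAT and 11.9 and 8.82 CPM in eWAT. Of the Notch and hedgehog list, none was higher and 6 of 21 were lower (2 without the block), led by Gas1, a hedgehog co-receptor, at 30.0 and 34.0 CPM in BAT and 89.7 and 169 CPM in eWAT. Egfr (95.3 and 78.0 CPM in BAT and 267 and 293 CPM in eWAT) and Pdgfrb (129 and 85.7 CPM in BAT and 269 and 237 CPM in eWAT) were lower in BAT too.

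Among genes named for nerve cells, lower calls outnumbered higher ones. In the neural adhesion list 2 of 29 were higher and 12 lower (1 and 4 without the block), with a median of -1.25. Chl1, an adhesion molecule, read 1.90 and 0.765 CPM in BAT and 40.8 and 163 CPM in eWAT, a log2 difference of -5.72 (SE 0.46, adjusted p = 0.000621), and Flrt2 14.8 and 8.03 CPM in BAT and 79.0 and 128 CPM in eWAT. Among axon guidance genes 2 of 48 were higher and 11 lower (1 and 2 without the block). Sema5a read 4.44 and 3.44 CPM in BAT and 43.3 and 39.3 CPM in eWAT, a log2 difference of -3.34 (SE 0.26, adjusted p = 0.000603), and Slit3 28.3 and 21.8 CPM in BAT and 207 and 88.5 CPM in eWAT, while Sema3g was higher at 17.1 and 17.6 CPM in BAT and 2.10 and 3.70 CPM in eWAT. The Schwann cell marker Sox10 read 0 and 0 CPM in BAT and 0.233 and 0.284 CPM in eWAT. Preadipocyte and fibroblast marker sums were lower in BAT as well, and their part in this result was not tested.

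Extracellular matrix genes had more lower than higher calls in BAT across several classes. Of proteoglycans, elastic fibre and other glycoproteins, 32 of 70 were lower and 4 higher (13 and 0 without the block), with a median of -0.76. Decorin (Dcn), a collagen-binding proteoglycan, read 136 and 159 CPM in BAT and 1670.1 and 2106 CPM in eWAT, a log2 difference of -3.67 (SE 0.17, adjusted p = 0.000179). Spon1 read 5.92 and 9.94 CPM in BAT and 243 and 219.9 CPM in eWAT, a log2 difference of -4.94 (SE 0.27, adjusted p = 0.000224), and Efemp1 44.6 and 36.7 CPM in BAT and 247 and 228 CPM in eWAT. These 3 genes were alike in both replicates of a depot. Collagens gave 13 of 30 lower and 4 higher (6 and 1 without the block). Col3a1, a fibrillar collagen, read 3004 and 2269 CPM in BAT and 12417 and 14652 CPM in eWAT, a log2 difference of -2.36 (SE 0.27, adjusted p = 0.0018). Col6a5 had 35.4 and 343 CPM in eWAT against 3 counts over the BAT libraries, a ratio of 426-fold with an exact 95% interval from 146 to 2069; this interval too covers counting error only, and the eWAT replicates differed widely. Col27a1 went up in BAT, at 39.9 and 40.5 CPM in BAT and 7.69 and 6.83 CPM in eWAT, a log2 difference of 2.46 (SE 0.22, adjusted p = 0.000838).

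Matrix turnover followed, with 21 of 41 proteases and inhibitors lower and 1 higher (11 and 0 without the block) and a median of -1.12. Mmp3, stromelysin, read 7.82 and 12.2 CPM in BAT and 82.0 and 150.2 CPM in eWAT, a log2 difference of -3.50 (SE 0.17, adjusted p = 0.000179). Adamts15 read 13.5 and 32.9 CPM in BAT and 234 and 369 CPM in eWAT and Adamts5, an aggrecanase, 117 and 107 CPM in BAT and 629 and 474 CPM in eWAT. Basement membrane and integrin genes gave 13 of 35 lower and 3 higher (7 and 0 without the block). Lamc1, the common laminin chain, read 271 and 364 CPM in BAT and 649 and 809.7 CPM in eWAT, whereas the lower integrins Itgb2 (6.13 and 4.21 CPM in BAT and 86.2 and 57.2 CPM in eWAT) and Itgam (13.5 and 3.82 CPM in BAT and 139 and 114 CPM in eWAT) are those of white blood cells. Itgad, also an integrin of white blood cells, went the other way and was called higher. Without the block it was not called, at a log2 of 3.37. Preadipocyte marker sums moved with the matrix lists, which share up to 3 genes each with that marker list, and macrophage sums moved with Itgb2 and Itgam but not with Itgad. The basement membrane and integrin list shares 1 gene with the macrophage list. The part of these cells in the result was not tested.

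**Figure D5:**
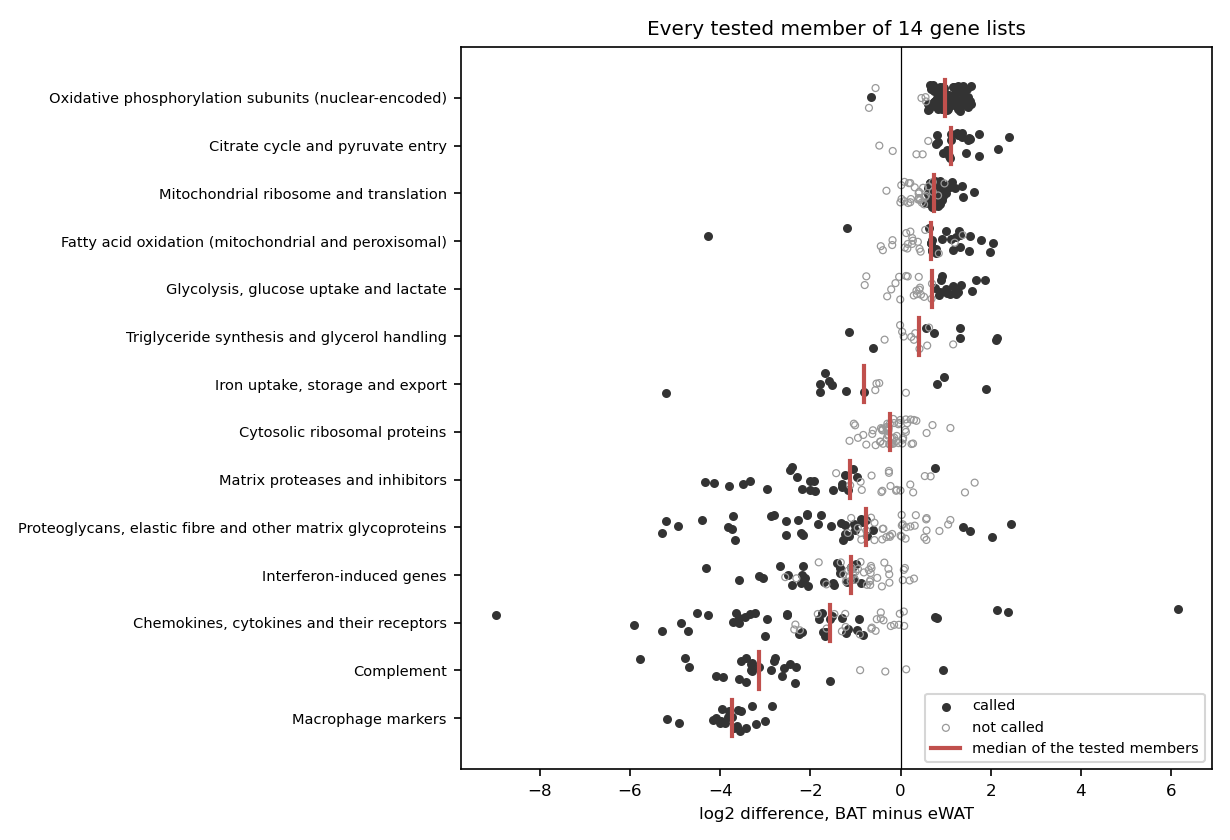
Each point is a tested member of a gene list placed at its log2 difference of BAT minus eWAT; filled points were called, open points were not, and red bars mark medians. Oxidative phosphorylation genes cluster near a median of 0.98, cytosolic ribosomal protein genes near -0.24, and complement genes near -3.15.

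Complement had the lowest median of the function lists. Of 27 tested, 23 were lower and 1 higher (16 and 0 without the block), with a median of -3.15. C3, the central component, read 40.6 and 59.6 CPM in BAT and 848 and 2129 CPM in eWAT, a log2 difference of -4.78 (SE 0.26, adjusted p = 0.000224). Cfp, properdin, read 6.76 and 1.15 CPM in BAT and 87.1 and 34.7 CPM in eWAT. The membrane inhibitor Cd59a was the higher member, at 43.5 and 53.5 CPM in BAT and 23.3 and 27.3 CPM in eWAT. The list shares 3 genes with the macrophage list; of the 24 others, 20 were lower, with a median of -2.84. Both eWAT libraries exceeded both BAT libraries for C3 and Cfp.

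Acute phase and chemokine genes were lower in the same direction. Acute phase and defence proteins fell in 19 of 25 and rose in 1 (10 and 0 without the block). Saa3, a serum amyloid protein, read 7.82 and 2.68 CPM in BAT and 1299 and 4178 CPM in eWAT, a log2 difference of -8.62 (SE 0.64, adjusted p = 0.000475). Serpina3n read 88.1 and 45.1 CPM in BAT and 1166 and 1032 CPM in eWAT, though copies of this gene family can share reads. Of chemokines, cytokines and receptors, 33 of 61 were lower and 5 higher (16 and 0 without the block). Il33, an alarmin of stromal cells, read 0.211 and 1.15 CPM in BAT and 19.8 and 61.7 CPM in eWAT, a log2 difference of -5.91 (SE 0.42, adjusted p = 0.000474). Ccl6 read 37.2 and 10.7 CPM in BAT and 858 and 858 CPM in eWAT and Ccl8 2.32 and 1.91 CPM in BAT and 33.1 and 78.5 CPM in eWAT. Tslp was the exception with the largest rise, at 19.4 and 1.53 CPM in BAT and 0.233 and 0 CPM in eWAT, but its BAT libraries differed widely.

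The motif GGANTTTCC, which resembles NF-kappa-B sites, was searched on both strands. It was in 3 of 27 promoters (11.1%) of the chemokine and cytokine genes called lower, in 8 of 57 (14%) over the whole list and in 1.27% of those of all tested genes, so the called members did not hold it more often than the list. The 2 with the smallest adjusted p are shown with the match in capitals.
Il6 (chr5:30012864-30013163, plus strand): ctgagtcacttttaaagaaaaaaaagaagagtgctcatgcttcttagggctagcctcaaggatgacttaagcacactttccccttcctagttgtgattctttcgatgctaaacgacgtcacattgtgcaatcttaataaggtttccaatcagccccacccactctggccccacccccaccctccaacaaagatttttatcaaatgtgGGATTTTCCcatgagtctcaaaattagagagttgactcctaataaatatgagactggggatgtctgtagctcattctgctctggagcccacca
Il1rl2 (chr1:40324339-40324638, plus strand): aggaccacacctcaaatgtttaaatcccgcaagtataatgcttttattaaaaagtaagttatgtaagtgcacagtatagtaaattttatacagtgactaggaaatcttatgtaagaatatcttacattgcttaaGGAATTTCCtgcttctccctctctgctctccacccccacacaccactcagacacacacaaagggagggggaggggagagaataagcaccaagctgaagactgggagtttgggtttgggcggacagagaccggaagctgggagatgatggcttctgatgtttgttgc
Il6 read 16.1 and 2.68 CPM in BAT and 33.1 and 7.39 CPM in eWAT, a log2 of -1.16 (SE 0.26), with overlapping libraries and replicate 1 above replicate 2 in each depot. Il1rl2, an interleukin receptor gene, read 6.34 and 3.44 CPM in BAT and 11.2 and 14.2 CPM in eWAT.

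Interferon-induced genes were called lower in 26 of 63 tested and higher in none (7 and 0 without the block), with a median of -1.09. The other 37 were not called, and 5 of the 63 values were above 0. Ifi27l2a read 22.2 and 16.8 CPM in BAT and 90.4 and 127 CPM in eWAT, a log2 difference of -2.40 (SE 0.24, adjusted p = 0.0012). Oas2, a sensor enzyme for double-stranded RNA, read 1.90 and 1.53 CPM in BAT and 15.6 and 12.2 CPM in eWAT. Leaving out BAT replicate 1 raised the calls to 55 and leaving out eWAT replicate 2 lowered them to 15. Promoters were searched on both strands for AAANNGAAA, which resembles the interferon-stimulated element. It was in 10 of 21 promoters (47.6%) of the members called lower, 32 of 56 (57.1%) over the whole list and 7.96% of those of all tested genes, so the called members did not hold it more often than the list. The 2 with the smallest adjusted p among those called follow with matches in capitals.
Ifi205 (chr1:174031706-174032005, minus strand): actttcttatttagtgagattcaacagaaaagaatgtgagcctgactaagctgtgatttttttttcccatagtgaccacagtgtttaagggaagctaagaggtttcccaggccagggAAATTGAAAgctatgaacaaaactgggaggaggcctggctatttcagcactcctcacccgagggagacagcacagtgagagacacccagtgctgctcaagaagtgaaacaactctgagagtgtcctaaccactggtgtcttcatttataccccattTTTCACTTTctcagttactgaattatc
Trim30a (chr7:104446076-104446375, minus strand): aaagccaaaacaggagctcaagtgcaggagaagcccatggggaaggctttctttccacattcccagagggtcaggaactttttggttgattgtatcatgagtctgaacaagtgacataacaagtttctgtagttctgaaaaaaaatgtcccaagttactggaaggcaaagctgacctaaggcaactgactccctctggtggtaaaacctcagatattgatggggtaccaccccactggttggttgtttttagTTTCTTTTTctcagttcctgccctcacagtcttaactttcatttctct
Ifi205 read 4.86 and 4.59 CPM in BAT and 51.3 and 32.4 CPM in eWAT, a log2 difference of -3.14 (SE 0.35, adjusted p = 0.00162), and Trim30a 34.4 and 9.94 CPM in BAT and 99.0 and 99.5 CPM in eWAT. Both belong to families of near-identical neighbours that can share reads.

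Antigen presentation and lysosome genes were lower with these. In antigen presentation 14 of 24 were lower and 1 higher (9 and 0 without the block). H2-K1, a class I gene whose close relatives can share its reads, read 332 and 240.1 CPM in BAT and 748 and 974 CPM in eWAT, and Nlrc5, the class I activator, 12.7 and 4.97 CPM in BAT and 36.8 and 35.0 CPM in eWAT. In the lysosome list 27 of 55 were lower and 4 higher (15 and 1 without the block). The cathepsin Ctss, typical of macrophages, read 25.6 and 6.12 CPM in BAT and 226 and 136 CPM in eWAT, a log2 difference of -3.59 (SE 0.28, adjusted p = 0.000537), and Ctsc 50.3 and 43.2 CPM in BAT and 186 and 141 CPM in eWAT. Proton pump subunits Atp6v1d (152 and 215 CPM in BAT and 102 and 121 CPM in eWAT) and Atp6v0e (209.8 and 241 CPM in BAT and 145 and 160.1 CPM in eWAT) were higher. The macrophage marker sums moved with the complement, acute phase, chemokine, interferon, antigen and lysosome lists, and their part in the result was not tested. The macrophage list shares 2 genes with the acute phase list and 1 each with the chemokine and lysosome lists. Without the shared genes, 17 of 23, 32 of 60 and 26 of 54 members of these lists were lower. The interferon and antigen lists share none.

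Several groups differed little or leaned on the replicate number. Proteasome genes gave 8 of 39 higher and none lower, with a median of 0.11, and no call without the block. In the unfolded protein and heat shock list 1 of 44 were higher and 6 lower, with none called without the block. Among antioxidant genes, Sod2 of mitochondria rose (1679 and 2090 CPM in BAT and 916 and 1032 CPM in eWAT), while Gsta3 (1.27 and 1.53 CPM in BAT and 17.2 and 65.4 CPM in eWAT, a log2 difference of -4.58 (SE 0.39, adjusted p = 0.000691)) and Hmox1 (69.5 and 61.6 CPM in BAT and 232 and 146 CPM in eWAT) fell. Cell cycle genes were lower in 10 of 52 and higher in 1, and immediate early genes lower in 5 of 20, with none of these called without the block. Mki67, a proliferation marker, read 234 and 85.7 CPM in BAT and 377 and 149.9 CPM in eWAT, and Fos 46.3 and 6.12 CPM in BAT and 95.7 and 15.4 CPM in eWAT. For both, replicate 1 of BAT exceeded replicate 2 of eWAT, so the depots overlapped and the difference lies within each replicate number. The replicate term itself called 560 genes (4.77%) lower and 234 (1.99%) higher in replicate 2.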

How the data were processed

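Per the submitters' processing notes, reads were aligned with STAR to mm9, and per the file headers the deposited count table holds raw counts per gene and library. The STAR version, the counting program, the use of strand and the treatment of multi-mapping reads are not given in these sources, so antisense, overlapping and duplicated genes are uncertain. Of 20295 genes, 2596 had no count, and the edgeR filter by depot kept 11732. Counts of the 6 libraries were fitted with edgeR 4.0.16 in R 4.3.3 (TMM factors, quasi-likelihood F test, two-sided) with depot and replicate number as terms, since 4 libraries alone leave few residual degrees of freedom. The Benjamini-Hochberg adjustment ran over all tested genes, and the SE is the absolute log2 difference over the square root of F.

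The replicate number pairs the libraries by the data, not by the labels: deviations within a depot correlated across genes at 0.412 between BAT and eWAT, 0.448 between BAT and iWAT and 0.556 between eWAT and iWAT. The estimated common BCV, the biological spread between libraries, was 0.145 with the block and 0.251 without. Folds against a group with no count use 3 counts over that group. Genes were named by rule: per direction, the 15 largest differences at 5 CPM or more without overlap and the 15 smallest adjusted p, the markers, and up to 4 called members per list and direction. Adipoq, Ccl8, Il6, Il1rl2, Lep, Lipe, Pnpla2, Trim30a, Uqcrc1 and the genes so marked in the text were added after their values were seen, and a few genes that the rule names are not reported here. The members and gene lists were chosen with earlier results of these data known. Alternatives were DESeq2 1.42.0, limma 3.58.1, other scalings and filters, and leaving out each library. The fit was tested on simulated data. Figures used Python 3.11.15 and matplotlib 3.10.9.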

Additional observations from a re-analysis of the deposited data

How the results depend on the processing

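The fit with the replicate block called 1276 genes higher and 1504 lower in BAT. With no replicate block the counts were 318 and 440, and with the BAT and eWAT libraries only and no replicate block 40 and 116; every one of those calls was also made with the block. With the 4 libraries and the block they were 1083 and 1287. DESeq2 called 803 higher and 1009 lower. Limma voom, RLE factors and the filters kept both counts within 1.5 times, and so did scaling by total counts. Leaving out 1 library gave from 416 to 1572 genes higher and from 752 to 1642 lower, with the low ends from leaving out an eWAT library. The cause of these changes was not tested. No called gene was called in the opposite direction under any alternative run. Of the 383 called genes followed by name, 176 lost the call without the block, 119 without eWAT replicate 1 and 107 without eWAT replicate 2, and at most 49 in any other setting with the block. Pnpla2, not called in the fit reported, was called higher at a log2 of 0.622 without BAT replicate 1 and lower at -1 without BAT replicate 2. The largest loss of named calls came with the BAT and eWAT libraries only and no block, where 303 of 381 were lost. With 2 libraries a depot and replicate 1 deeper in each, genes of few counts are the least certain.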

Other observations

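Lists not described above are given here with their counts, to be read against the 10.9% higher and 12.8% lower of all tested genes. Angiogenic and hypoxia genes were called higher in 8 of 29 tested and lower in 4 (6 and 1 without the block). Pdk1, which limits pyruvate oxidation, read 359 and 499.8 CPM in BAT and 113 and 186 CPM in eWAT, a log2 difference of 1.54 (SE 0.22, adjusted p = 0.00369), and Bnip3, a mitophagy receptor, 367 and 525 CPM in BAT and 107 and 169 CPM in eWAT. Hif1a itself was lower at 481 and 339 CPM in BAT and 639 and 582 CPM in eWAT. Phospholipid and sphingolipid genes gave 5 higher and 3 lower of 37, with Pcyt2, of phosphatidylethanolamine synthesis, at 167 and 234 CPM in BAT and 78.0 and 89.6 CPM in eWAT. One-carbon and pentose phosphate genes gave 4 higher and 1 lower of 25. Amino acid transporters were higher in 3 and lower in 7 of 28, and the neutral carrier Slc7a8 read 1.27 and 0 CPM in BAT and 19.6 and 16.2 CPM in eWAT, a log2 difference of -4.55 (SE 0.56, adjusted p = 0.00229). Other ion and metabolite transporters were higher in 3 and lower in 9 of 52; the sodium-calcium exchanger Slc8a1 read 16.7 and 8.03 CPM in BAT and 83.6 and 64.0 CPM in eWAT. Cadherin and junction genes were higher in 3 and lower in 5 of 25, with the tight junction gene Cldn1 at 18.4 and 22.6 CPM in BAT and 2.80 and 4.84 CPM in eWAT. Clock genes were higher in 2 and lower in 1 of 17. Imprinted genes were higher in 2 and lower in 3 of 16, with Gnas, the stimulatory G protein gene, at 694 and 1372 CPM in BAT and 495 and 371 CPM in eWAT. Without the block, each of these lists after the angiogenic one had at most 3 calls. Neither Gnas nor Hif1a was called without the block or without either eWAT library, and Hif1a was also lost without BAT replicate 2 and with the 4 libraries alone.

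The replicate term of the same fit, replicate 2 minus replicate 1, called more genes lower than higher. Among the lists with many lower calls, 26 of 52 cell cycle genes, 20 of 37 contractile, SRF and YAP target genes, 10 of 20 immediate early genes and 11 of 21 macrophage markers were lower in replicate 2, against 4.77% of all tested genes, and none of these 4 lists had a higher call. Their median log2 values were -0.94, -1.03, -0.98 and -1.34. Tagln, a smooth muscle gene, read 747 and 65.4 CPM in BAT and 624 and 131 CPM in eWAT. Its values followed the replicate number rather than the depot. The term covers all 3 depots, and depth differed with it in each.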
